A study of Mus musculus with 10 samples.

Results

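The enzymes of glycolysis were followed at the mRNA level in jejunal epithelial cells, through 10 genes of the path from glucose to lactate: Hk1, Hk2, Gpi1, Pfkl, Aldoa, Gapdh, Pgk1, Eno1, Pkm and Ldha. The steps of triose phosphate isomerase and phosphoglycerate mutase have no gene among the 10. The members were taken by symbol from the 35275 genes of the expression table, each matched 1 row, and all 10 passed the filter on low values. RNA of mechanically isolated epithelial cells came from adult male C57BL/6 VillinCreERT2;MYO5Bflox/flox mice on day 4. In this line the villin promoter drives a Cre recombinase that acts only after tamoxifen, so that Myo5b, which encodes a motor protein of apical vesicle traffic, is removed from intestinal epithelium. The 3 control mice (controls, numbers 2, 4 and 5) carried both alleles but received corn oil, the 4 MYO5B-knockout mice (knockouts for short, 3, 5, 6 and 7) received 2 mg of tamoxifen and a vehicle, and the 3 LPA-treated MYO5B-knockout mice (1, 4 and 5) received 2 mg of tamoxifen and lysophosphatidic acid (LPA) at 3 mg/kg for 4 days. Tamoxifen and the deletion therefore cannot be told apart in the comparison with control mice. The titles of the LPA-treated samples begin with ipL, and the study writes ip for intraperitoneal injection.

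Glycolysis splits glucose into pyruvate in the cytosol and yields ATP and NADH. Hexokinases trap glucose as glucose 6-phosphate, phosphofructokinase commits it to breakdown, and pyruvate kinase and lactate dehydrogenase close the path. Absorptive cells of the jejunum take up luminal glucose and fructose and also oxidise glutamine and fatty acids, whereas dividing crypt cells are known for a higher use of glucose. Several of these genes are textbook targets of hypoxia-inducible factors and of Myc, whose core binding motifs share the letters ACGTG. Gapdh was also the gene to which quantitative PCR values were related in the study.

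The promoter sequences below are shown because they belong to the members described first, the 2 hexokinases, and to Pgk1 and Ldha, members known as hypoxia targets. Each is the 250 bases before a transcription start in RefSeq (GRCm38.p6), written 5′ to 3′ on the strand of the gene, and capitals mark ACGTG and GCGTG on either strand. The windows lie at chr10:62379909-62380158 (minus strand) and chr10:62340422-62340671 (minus) for Hk1, chr6:82774455-82774704 (minus) for Hk2, chrX:106186850-106187099 (plus) for Pgk1 and chr7:46845554-46845803 (plus) for Ldha.
Hk1, upstream start: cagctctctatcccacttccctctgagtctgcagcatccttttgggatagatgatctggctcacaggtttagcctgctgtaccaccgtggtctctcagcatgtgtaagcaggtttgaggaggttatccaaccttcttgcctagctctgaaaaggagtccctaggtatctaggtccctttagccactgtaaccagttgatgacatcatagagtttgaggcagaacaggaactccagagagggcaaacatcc
Hk1, downstream start: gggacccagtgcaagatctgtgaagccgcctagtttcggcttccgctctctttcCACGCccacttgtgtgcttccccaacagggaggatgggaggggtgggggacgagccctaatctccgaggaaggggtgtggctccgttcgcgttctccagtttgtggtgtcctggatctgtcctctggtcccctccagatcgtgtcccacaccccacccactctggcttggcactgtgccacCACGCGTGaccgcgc
Hk2: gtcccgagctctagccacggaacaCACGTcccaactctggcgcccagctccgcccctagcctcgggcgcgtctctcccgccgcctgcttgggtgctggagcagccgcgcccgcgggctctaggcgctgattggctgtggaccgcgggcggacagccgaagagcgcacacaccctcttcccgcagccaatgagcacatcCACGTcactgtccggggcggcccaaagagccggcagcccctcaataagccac
Pgk1: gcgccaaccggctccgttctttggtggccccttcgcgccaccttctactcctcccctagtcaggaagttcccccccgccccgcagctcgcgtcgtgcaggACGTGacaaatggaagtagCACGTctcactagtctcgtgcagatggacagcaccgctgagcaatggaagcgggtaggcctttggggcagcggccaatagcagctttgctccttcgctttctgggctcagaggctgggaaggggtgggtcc
Ldha: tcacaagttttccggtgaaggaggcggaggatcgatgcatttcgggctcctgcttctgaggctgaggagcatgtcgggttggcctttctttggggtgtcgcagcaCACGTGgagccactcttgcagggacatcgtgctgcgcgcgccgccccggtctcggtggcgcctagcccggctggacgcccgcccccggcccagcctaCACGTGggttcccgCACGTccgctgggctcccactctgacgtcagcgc

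The upstream window of Hk1 held neither ACGTG nor GCGTG, whereas the downstream one held 3 copies of GCGTG. Hk2 and Pgk1 held 2 copies of ACGTG each. The Ldha window shown held ACGTG 5 times, since its 2 palindromes CACGTG read as ACGTG on both strands. The other Ldha window, not shown, held 0 copies of ACGTG and 1 of GCGTG. RefSeq gave 17 windows for the 10 members, some of them overlapping, and 13 of the 17 held ACGTG or GCGTG. Counted over all windows of a member, 9 of 10 members held either motif, 5 held ACGTG and 1 held CACGTG. Among all 32851 windows of the same length, 38.6% held either motif, 16.6% held ACGTG and 6.02% held CACGTG. These shares are per window. The counts per member pool the windows of a gene, so they cannot be set against these shares. These matches are letters in a window, without regard to base composition. The table gives 1 value per gene, so reads that began at the 2 starts of Hk1 were not separated.

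The depth was 10949420 to 24470409 reads on genes per library. Myo5b itself was present at 16.5 to 32.0 FPKM (fragments per kilobase, relative to all fragments counted) in control mice and at 10.3 to 13.6 FPKM in the 7 tamoxifen-induced mice, without overlap. Control mouse 2 and MYO5B-knockout mouse 3 gave libraries that stood apart: 12242 and 12601 genes had reads against 17309 to 18267 in the other 8, and mitochondrial genes took 17.4% and 18.0% of reads against 1.98% to 3.50%. They are shown apart in what follows, and fold changes are given with and without them. Although all mice are labelled male, Xist reached 8.41 FPKM in MYO5B-knockout mouse 3 and 15.1 FPKM in LPA-treated mouse 1, both without a read on 4 Y-linked genes. P-values cover the spread between these separate mice.

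The members took 0.392% to 1.24% of the reads of a library. The lowest share and the next lowest, 0.460%, were those of MYO5B-knockout mouse 3 and control mouse 2, and LPA-treated mouse 5 followed with 0.593%. Apart from these 3 mice, the share was 0.876% and 0.976% in control mice, 0.917% to 1.24% in MYO5B-knockout mice and 1.02% and 1.13% in LPA-treated mice. The ranges of the 3 groups overlapped with all mice. They also overlapped without only the 2 libraries that stood apart, where the LPA-treated mice spanned 0.593% to 1.13%. LPA-treated mouse 5 was left out above for its low share itself, so the order of the groups without it is not a result. Per unit of gene length, Gapdh was the highest of the 10 in 7 libraries, Pkm in the 2 libraries that stood apart and Ldha in LPA-treated mouse 5. Both hexokinase genes were the lowest in every library. In MYO5B-knockout mice the order by mean FPKM was Gapdh, Ldha, Pkm, Eno1, Aldoa, Pgk1, Gpi1, Pfkl, Hk2 and Hk1. The only neighbours in that order whose intervals of mean ± SD did not overlap were Gpi1 (159 ± 22.8 FPKM, SD, n = 4) and Pfkl (26.9 ± 8.63 FPKM, SD, n = 4).

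**Figure D1:**
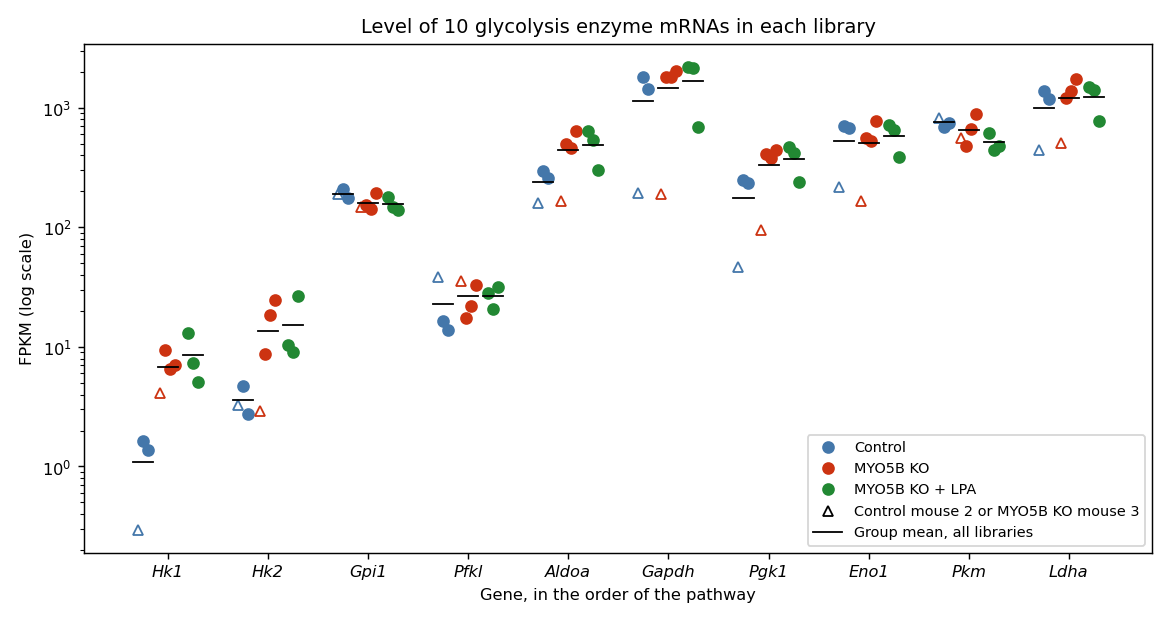
FPKM (log axis) of the 10 glycolysis genes, 1 point per mouse, in control, MYO5B-knockout and LPA-treated MYO5B-knockout mice, with bars at the group means and open triangles for control mouse 2 and MYO5B-knockout mouse 3. Hk1 is the gene whose 4 MYO5B-knockout points (4.12 to 9.38 FPKM) all lie above the 3 control points (0.296 to 1.62 FPKM), and Gapdh falls to 192 and 189 FPKM in the 2 open triangles.

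Of the 10 members, Hk1 alone passed the test described next, and it was higher in MYO5B-knockout than in control mice. In limma's moderated test on log2(FPKM + 0.1), 1 of 10 members passed an adjusted p of 0.05, against 2.01% of the 15729 genes tested (177 higher, which is 1.13%, and 139 lower). The split over all genes turned to 223 higher and 375 lower after median-of-ratios scaling and to 366 and 438 after quantile normalization. The median log2 fold change of the members was 0.37 and 7 of 10 lay above 0. The median of all genes was 0.29 and 63.4% of them lay above 0, near the share of the members. Median-of-ratios scaling brought the median of all genes to 0.04. In edgeR, on reads recovered from FPKM, the medians of members and all genes were 0.10 and 0.06. There 6 of 10 members and 52.8% of all genes lay above 0. In groups that did not overlap, 1 of 10 members was higher in MYO5B-knockout mice, against 11% of all genes.

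Hexokinases catalyse the first step. Hk1 (ENSMUSG00000037012, chromosome 10 from 62268855 to 62379908, minus strand) encodes the broadly expressed form that binds the outer mitochondrial membrane. It was present at 0.296, 1.62 and 1.36 FPKM in controls 2, 4 and 5, and at 4.12, 9.38, 6.53 and 7.04 FPKM in knockouts 3, 5, 6 and 7. LPA-treated mice 1, 4 and 5 held 13.1, 7.32 and 5.09 FPKM. Every mouse with the deletion lay above every control mouse. The share of all genes that separate in this way, with the LPA-treated mice included, was not counted. The mean was 6.19-fold higher in knockouts than in controls, and the log2 fold change was 2.72 (standard error, SE, 0.57, limma adjusted p = 0.0426). Without the 2 libraries that stood apart, the change was 2.27 (SE 0.39, limma adjusted p = 0.0146). The call was a narrow one: with each mouse left out in turn, Hk1 passed in 1 of 10 fits, with limma's adjusted p between 0.0346 and 0.136. The lowest control value rests on 14 reads, the highest value of any library on 1373.

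Hk2 (ENSMUSG00000000628, chromosome 6 from 82725025 to 82774454, minus strand) encodes the inducible hexokinase typical of muscle, fat and growing cells. Control mice held 3.25, 4.71 and 2.77 FPKM, and knockouts 2.90, 8.74, 18.6 and 24.5 FPKM. MYO5B-knockout mouse 3 lay within the control range and the other 3 lay above it. The log2 fold change was 1.55 (SE 0.68, limma adjusted p = 0.271) with all libraries and 2.11 (SE 0.54, adjusted p = 0.0535) without the 2 that stood apart. LPA-treated mice held 10.4, 9.10 and 26.5 FPKM, so that Hk2 varied widely within both groups with the deletion. Another hexokinase-like gene, Hkdc1, named here after its values were seen, was higher per length than both, at 33.7, 105 and 97.8 FPKM in controls and 22.6, 110.2, 97.1 and 86.9 FPKM in knockouts (log2 fold change -0.05, SE 0.59, limma adjusted p = 0.979).

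The next 2 steps convert glucose 6-phosphate to fructose 6-phosphate and add the second phosphate. Gpi1 (ENSMUSG00000036427), the isomerase, had the narrowest range over the 10 libraries: 192, 207 and 176 FPKM in controls, 148, 154, 142 and 192 FPKM in knockouts and 180.0, 147 and 139 FPKM after LPA. The libraries that stood apart lay at 0.999 and 0.912 of the mean of the other mice of their groups. Pfkl (ENSMUSG00000020277), the liver-type subunit of phosphofructokinase, was present at 38.5, 16.4 and 13.9 FPKM in controls and at 35.3, 17.4, 21.9 and 33.1 FPKM in knockouts. The highest mouse of each of these groups was the library that stood apart. Leaving these out moved the log2 fold change of Pfkl from 0.32 (SE 0.40) to 0.62 (SE 0.31), with limma's adjusted p of 0.722 and 0.239.

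Aldolase splits the sugar into 2 triose phosphates. Aldoa (ENSMUSG00000030695), the aldolase of muscle and of most other cells, was present at 160.1, 298 and 259 FPKM in controls, 167, 498, 464 and 643 FPKM in knockouts and 633, 534 and 303 FPKM after LPA. Outside the 2 libraries that stood apart, all mice with the deletion lay above the controls, and the mean was 1.92-fold higher in knockouts. How many of all genes do so with the LPA-treated mice included was not counted. The log2 fold change without them was 0.93 (SE 0.33) and did not pass, with limma adjusted p = 0.122.

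Gapdh (ENSMUSG00000057666), which oxidises glyceraldehyde 3-phosphate and feeds NADH, was present at 192, 1796 and 1429 FPKM in controls and at 189, 1817, 1822 and 2019 FPKM in knockouts. Control mouse 2 and MYO5B-knockout mouse 3 were 8.40- and 9.95-fold below the other mice of their groups, a larger gap than for any other member. LPA-treated mice held 2188, 2154 and 689 FPKM. Between knockouts and controls the log2 fold change was 0.43 (SE 0.98), and it was 0.23 (SE 0.48) without the 2 libraries. Neither passed, with limma's adjusted p of 0.861 and 0.796. Gapdh has many near-identical copies: 162 other genes of GENCODE M21 had a transcript at least 90% identical over at least 50% of its own length or that of Gapdh. Of these, 146 were among the 35275 genes with values, and these 146 took 0.262% to 4.53% of the reads of Gapdh and themselves together.

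Pgk1 (ENSMUSG00000062070, chromosome X from 106187100 to 106203699, plus strand), the first ATP-forming step, was present at 46.2, 251 and 236 FPKM in controls, 94.8, 408, 379 and 442 FPKM in knockouts and 469.8, 415 and 241 FPKM after LPA. In the 8 other libraries the MYO5B-knockout values lay above the control values with little spread inside either group (409 ± 31.5 FPKM, SD, n = 3, and 243 ± 10.4 FPKM, n = 2). Neither fit passed: the log2 fold change was 1.02 (SE 0.69, limma adjusted p = 0.479) with all libraries and 0.75 (SE 0.30, limma adjusted p = 0.158) without the 2. With a covariate for the 2 libraries in place of their removal, it was 0.83 (limma adjusted p = 0.0406). Eno1 (ENSMUSG00000063524), the enolase of most tissues, had a slightly lower mean in knockouts, with 219.5, 699.6 and 676 FPKM in controls and 165, 556, 529 and 776 FPKM in knockouts. These ranges overlapped (log2 fold change -0.09, SE 0.58, limma adjusted p = 0.953).

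The last 2 steps form pyruvate and lactate. Pkm (ENSMUSG00000032294), the pyruvate kinase of muscle and dividing cells, was present at 821, 695 and 748 FPKM in controls, 556, 477, 669 and 894 FPKM in knockouts and 617, 447 and 477 FPKM after LPA. The LPA-treated mice lay below the controls here. That pair of groups was not tested, and the share of all genes that separate in this way was not counted. The Pkm values after LPA are therefore given only as a description. Ldha (ENSMUSG00000063229), which turns pyruvate into lactate, was present at 439, 1375 and 1176 FPKM in controls and at 505, 1210.2, 1373 and 1749 FPKM in knockouts. Control mouse 2 and MYO5B-knockout mouse 3 were again the lowest of their groups, by 2.90- and 2.86-fold. Limma's adjusted p was 0.692 for Pkm (log2 fold change -0.25, SE 0.29) and 0.808 for Ldha (0.30, SE 0.53).

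Without the 2 libraries that stood apart, 6 of 10 members were higher in every MYO5B-knockout mouse than in every control mouse (Hk1, Hk2, Pfkl, Aldoa, Gapdh and Pgk1) and 0 of 10 were lower. With only 3 against 2 mice, 35.5% of all genes were higher and 20.5% lower by the same rule. In that fit, 1 of 10 members passed (Hk1), against 6.52% of 15821 genes. The median log2 fold change of the members was 0.43 and that of all genes 0.21.

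**Figure D2:**
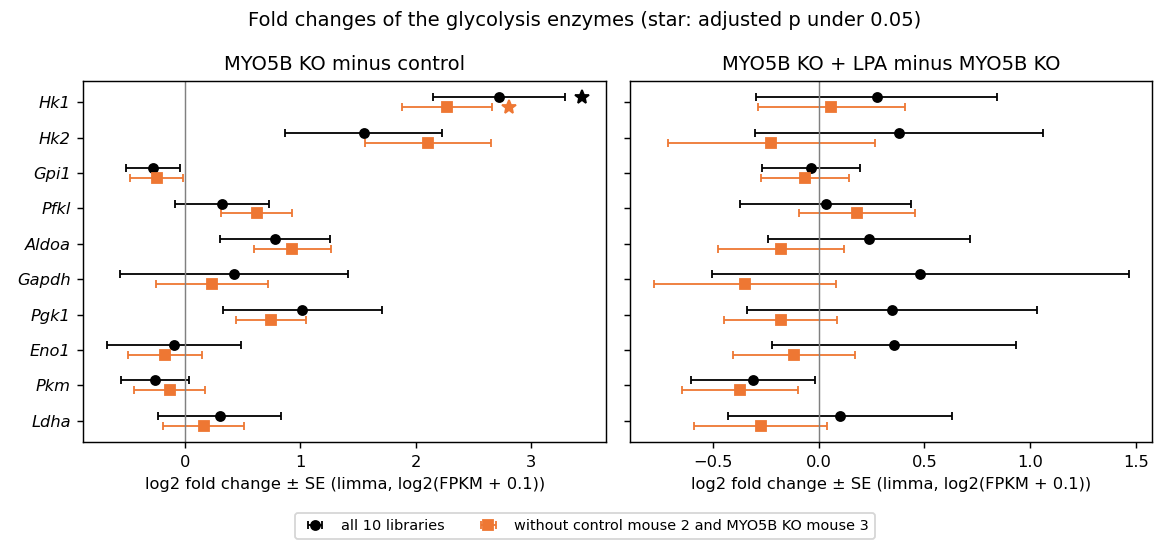
Log2 fold changes of the 10 genes (horizontal axis, limma on log2(FPKM + 0.1), points with standard errors) between knockouts and controls and between LPA-treated and vehicle-treated knockouts, with all 10 libraries (circles) and without the 2 that stand apart (squares). Stars mark an adjusted p under 0.05, which Hk1 has in both fits of the first comparison (2.72 and 2.27), and in the second comparison 6 genes lie above 0 as circles and below 0 as squares.

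The libraries that stood apart did not lower all glycolysis genes alike. In control mouse 2 the level relative to the other controls ranged from 0.119 for Gapdh to 2.54 for Pfkl, and in MYO5B-knockout mouse 3 from 0.100 for Gapdh to 1.46 for Pfkl. Gapdh, Pgk1, Eno1 and Ldha were at 0.100 to 0.350 in both, Gpi1 and Pkm at 0.818 to 1.14. Hk1 was lower in control mouse 2 (0.198) than in MYO5B-knockout mouse 3 (0.539), and Hk2 was the reverse (0.870 and 0.168). Pgam1, the mutase between Pgk1 and Eno1, was lower still, at 2.47 against 66.8 and 51.2 FPKM in controls and at 3.29 against 83.7 to 99.6 FPKM in knockouts, while Tpi1, the triose phosphate isomerase, was at 1068 against 781 and 778 FPKM and at 1028 against 525 to 731 FPKM. The ratio of Pkm to Gapdh was 4.28 and 2.94 in the 2 libraries and 0.207 to 0.693 in the other 8. Their part in these patterns of the detected gene number and of the mitochondrial share given above was not tested.

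**Figure D3:**
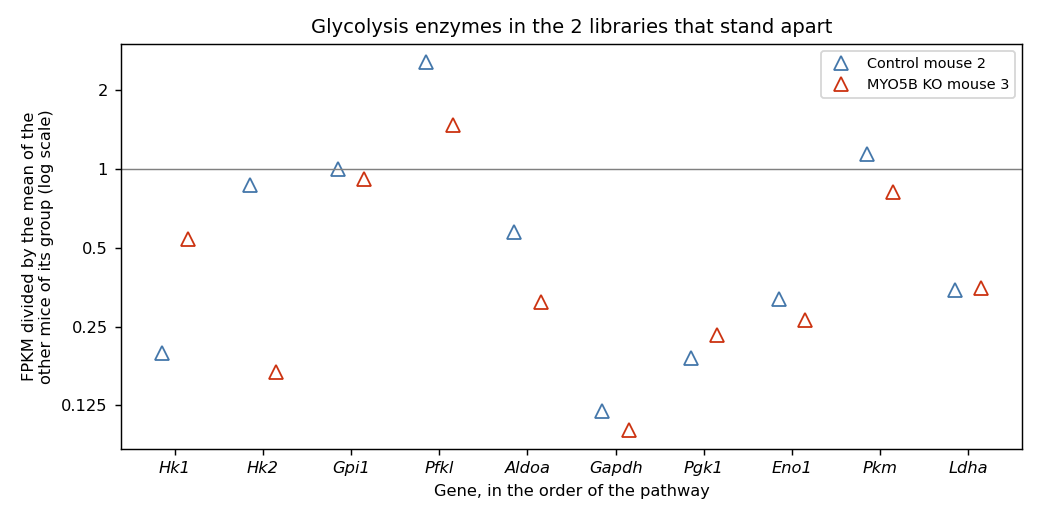
FPKM of each of the 10 genes in control mouse 2 and MYO5B-knockout mouse 3, divided by the mean of the other mice of the same group (log axis, line at 1). Gapdh lies lowest in both mice (0.119 and 0.100), Gpi1 lies close to 1 (0.999 and 0.912) and Pfkl lies above 1 (2.54 and 1.46).

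Across the 10 libraries, the log2 levels of Gapdh and Ldha were the most alike among the 45 pairs of members (Pearson's r = 0.98) and those of Pfkl and Gapdh the least (r = -0.63). In the 8 other libraries Aldoa and Pgk1 were the closest pair (r = 0.99), and 30 of 45 pairs were positive. The libraries of a pair share depth and cell content, so these values only describe the profiles. Among 10565 genes averaging 1 FPKM or more, the 5 most like the mean profile of the members over 10 libraries were Car9 (r = 0.98), Ankrd50, Pgd, Gjb1 and Praf2 (r = 0.97 each), and over the 8 libraries Pgd (r = 0.99), Tmed9, Dcaf12, Clic4 and Car9. Car9, which encodes an extracellular carbonic anhydrase, was present at 10.1, 21.5 and 20.7 FPKM in controls, 13.1, 37.7, 42.2 and 45.2 FPKM in knockouts and 45.4, 32.1 and 28.0 FPKM after LPA. Pgd, an enzyme of the pentose phosphate pathway, was present at 95.2, 135 and 113 FPKM and at 104, 173, 177 and 224 FPKM in controls and knockouts.

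For 2 steps the ratio of 2 isoenzymes within a library was compared, which does not depend on how libraries are scaled. The ratio of Hk2 to Hk1 was 10.97, 2.90 and 2.03 in controls and 0.704, 0.932, 2.85 and 3.49 in knockouts, which overlap. The mean log2 ratios differed by -1.33, and the exact two-sided permutation test gave p = 0.286 (adjusted p = 0.971 over 4 tests), where 0.0571 is the smallest p that 3 against 4 mice allow. Pkm exceeded Pklr, the liver-type pyruvate kinase, in every library. The excess was 7.71- and 11.5-fold in controls 4 and 5 and 6.80- to 11.8-fold in knockouts 5, 6 and 7. It was 105- and 106-fold in the libraries that stood apart and 5.74-, 12.2- and 83.2-fold in LPA-treated mice 1, 4 and 5. Between knockouts and controls the exact permutation test gave p = 0.857 (adjusted p = 0.971). Ldhb, the heart-type lactate dehydrogenase, had 0 reads in control mouse 2, MYO5B-knockout mouse 3 and LPA-treated mouse 1 and at most 2.82 FPKM elsewhere, so that no ratio to Ldha was formed.

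Of the other 21 glycolytic isoenzymes listed, 18 could be tested and 0 passed limma's test in knockouts, with 10 above 0 and 8 below. On recovered reads edgeR called 1 lower (Aldoc) and DESeq2 3 lower (Aldoc, Bpgm and Eno3), of which the first 2 are named here for these calls. Over all 15729 genes edgeR called 443 and DESeq2 1854, and the list counts by these tools here and below stand against those totals. In limma's test the median log2 fold change of these isoenzymes was 0.08, and the smallest adjusted p was 0.117. The 3 with the largest log2 fold changes at a mean of at least 1 FPKM follow. Eno3, the muscle enolase, was at 5.27, 8.10 and 11.9 FPKM in controls and at 0.818, 1.45, 2.16 and 5.58 FPKM in knockouts (log2 fold change -1.97, limma adjusted p = 0.117, DESeq2 adjusted p = 0.0065). Pgam2, the muscle mutase, was at 0, 0.696 and 1.43 FPKM and at 1.74, 2.21, 2.04 and 1.95 FPKM in the same groups (log2 fold change 2.07, limma adjusted p = 0.206). Pgm1, which links glucose 1-phosphate to glucose 6-phosphate, was at 6.68, 77.9 and 70.4 FPKM and at 21.3, 159, 155 and 122 FPKM (log2 fold change 1.42, limma adjusted p = 0.474).

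Of the genes that carry hexoses and lactate, 1 rose and 1 fell in limma's test. Slc2a1 (GLUT1), the basolateral and widely expressed glucose carrier, rose from 2.19, 5.08 and 4.03 FPKM in controls to 14.9, 30.6, 19.7 and 25.8 FPKM in knockouts (log2 fold change 2.59, SE 0.35, limma adjusted p = 0.0081). Slc2a5 (GLUT5), the apical fructose carrier, fell from 163, 200.3 and 198 FPKM to 16.6, 12.7, 44.3 and 55.7 FPKM (log2 fold change -2.79, SE 0.49, limma adjusted p = 0.0218). These were 2 of 8 transporters tested of 11 listed, and 5 of the 8 lay below 0. On recovered reads edgeR called 1 higher and 2 lower, and DESeq2 1 higher and 3 lower. Both of limma's calls held without the 2 libraries that stood apart, with limma's adjusted p of 0.0014 and 0.0251. In the fit without these 2, Slc5a1 (SGLT1), the apical sodium and glucose cotransporter, fell as well, from 1012 and 957 FPKM in controls 4 and 5 to between 271 and 433 FPKM in knockouts 5, 6 and 7 (log2 fold change -1.42, limma adjusted p = 0.0261). With all libraries it did not pass in limma (-1.25, adjusted p = 0.0744) and did in edgeR (adjusted p = 0.0490) and DESeq2 (adjusted p = 2.42e-06). Slc2a2 (GLUT2), through which enterocytes release hexoses, was at 19.3, 126 and 134 FPKM in controls and 5.98, 37.1, 63.9 and 40.9 FPKM in knockouts (log2 fold change -1.31, limma adjusted p = 0.475).

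Khk, the ketohexokinase that starts fructose breakdown, fell with the fructose carrier, from 813, 465 and 518 FPKM to 146, 62.1, 94.2 and 97.3 FPKM (log2 fold change -2.60, SE 0.36, limma adjusted p = 0.0082). Of the 8 genes of gluconeogenesis and fructolysis tested, 0 rose and 1 fell in limma's test, and 7 lay below 0 with a median of -1.81. On recovered reads edgeR called 3 lower (Khk, Slc37a4 and Fbp1) and DESeq2 these and Fbp2. Without the 2 libraries 4 of 8 fell: Khk, Fbp1 (fructose bisphosphatase, log2 fold change -2.93, limma adjusted p = 0.0017), Slc37a4 (the glucose 6-phosphate carrier of the endoplasmic reticulum, -1.68, limma adjusted p = 0.0056) and Fbp2 (-0.87, limma adjusted p = 0.0463). With all libraries the last 3 did not pass in limma. G6pc, the glucose 6-phosphatase, was at 3.41, 6.27 and 24.2 FPKM in controls and at 0, 5.36, 2.92 and 0.918 FPKM in knockouts, and did not pass in either limma fit, in edgeR or in DESeq2.

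**Figure D4:**
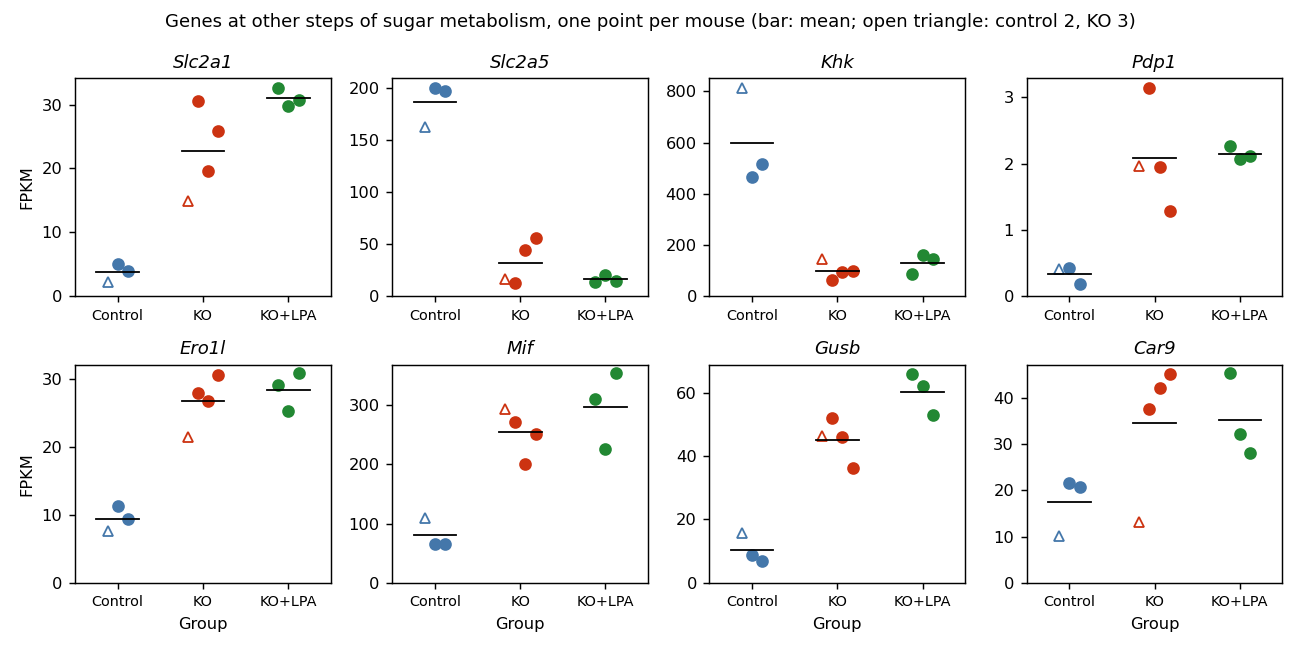
FPKM (linear axes from 0) of 7 genes called between knockouts and controls and of Car9, 1 point per mouse, with bars at group means and open triangles for control mouse 2 and MYO5B-knockout mouse 3. Slc2a1, Pdp1, Ero1l, Mif and Gusb lie higher and Slc2a5 and Khk lower in all 7 mice with the deletion than in the 3 controls, while Car9 overlaps through the open triangle at 13.1 FPKM. The share of all genes that separate over these 7 mice was not counted.

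Pdp1, the phosphatase that activates pyruvate dehydrogenase, rose from 0.409, 0.433 and 0.190 FPKM to 1.96, 3.13, 1.95 and 1.29 FPKM (log2 fold change 2.28, SE 0.45, limma adjusted p = 0.0362), the only one of 20 regulators tested that limma called with all libraries. On recovered reads edgeR called Mlxipl lower as well (adjusted p = 0.0279), and DESeq2 called 2 regulators higher and 2 lower. Without the 2 libraries Mlxipl (ChREBP), a glucose-responsive transcription factor, fell (log2 fold change -1.24, limma adjusted p = 0.0248) beside the rise of Pdp1. Hif1a, the oxygen-regulated transcription factor subunit, was at 15.9, 15.8 and 17.8 FPKM in controls and 61.1, 29.8, 35.8 and 34.1 FPKM in knockouts, and its log2 fold change of 1.22 did not pass in limma, nor did those of Pfkfb3 (-2.41) and Pdk2 (-2.30). Of the 7 genes for pyruvate import and oxidation and the 8 of the pentose phosphate pathway, 0 passed in limma, edgeR or DESeq2 with all libraries. By limma 6 lay above 0 in each list, against 63.4% of all genes. The largest log2 fold changes were 1.01 for Pdhx, 0.83 for Pdha1 and 0.78 for Dld, all of the pyruvate dehydrogenase complex, and 1.34 for H6pd, 1.19 for G6pdx and 0.89 for Tkt. Without the 2 libraries limma gave a call for H6pd, the hexose 6-phosphate dehydrogenase of the endoplasmic reticulum, which rose (log2 fold change 2.00, limma adjusted p = 0.0377).

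Among 14 hypoxia targets outside glycolysis, 2 rose and 0 fell in limma's test. Ero1l, an oxidase of protein folding, rose from 7.61, 11.3 and 9.45 FPKM to 21.5, 28.0, 26.8 and 30.6 FPKM (log2 fold change 1.495, SE 0.25, limma adjusted p = 0.0209), and Mif, a cytokine, from 109.7, 66.0 and 65.4 FPKM to 293, 272, 200.3 and 251 FPKM (log2 fold change 1.69, SE 0.29, limma adjusted p = 0.0213). DESeq2 called both, whereas edgeR called Ero1l but not Mif (adjusted p = 0.113). The other 12 did not pass in any of the 3 tools with all libraries. Ndrg1, a stress-responsive gene, had the largest log2 fold change of the list (1.97, limma adjusted p = 0.240). Vegfa, the vascular growth factor, named after its values were seen, was at 3.59, 24.7 and 32.5 FPKM in controls and at 3.71, 19.1, 20.9 and 22.9 FPKM in knockouts (log2 fold change -0.07, limma adjusted p = 0.979). Car9 passed in limma without the 2 libraries (log2 fold change 0.97, limma adjusted p = 0.0475). Of 12 genes in common use as references beside Gapdh, 1 passed in limma: Gusb, a lysosomal glucuronidase, rose from 15.6, 8.87 and 6.93 FPKM to 46.3, 52.0, 46.1 and 36.1 FPKM (log2 fold change 2.17, SE 0.30, limma adjusted p = 0.0085). In edgeR 0 of the 12 passed (Gusb adjusted p = 0.0558), and DESeq2 called 2 higher (Gusb and Ppia) and 1 lower (Sdha). B2m and Hprt, the reference genes with the next largest changes, had log2 fold changes of -1.63 and 1.17 and did not pass in limma.

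Markers of cell content were read in the same contrast, with limma's calls. The summed level of 20 proliferation markers was 198 to 232 FPKM in controls, 435 to 687 FPKM in knockouts and 280.0 to 584 FPKM after LPA. Of these markers 20 of 20 lay above 0, against 63.4% of all genes, and 2 were called higher (Rrm2 and Cenpa). For 15 enterocyte markers the sums of the 3 groups were 33305 to 43937, 15094 to 27682 and 23936 to 45513 FPKM, with 2 called lower (Apoc3 and Lct). Leukocyte markers, 13 in the list, summed to 329.8 to 458, 20.6 to 139 and 53.5 to 75.0 FPKM, with 2 called lower (Gzma and Cd52), and Ptprc, which defines leukocytes, was at 0.367 to 3.39 FPKM in the first and 0.158 to 1.57 FPKM in the second. The 7 markers of epithelium at large summed to 5001 to 6216, 6950 to 8927 and 8361 to 10368 FPKM, and those of stroma to at most 14.4 FPKM in any mouse. Of the markers of enteroendocrine cells, 1 of 6 was lower (Sst), and limma with all libraries called 0 of the markers of goblet, Paneth or tuft cells, stroma, red cells or epithelium at large. Without the 2 libraries it called 1 tuft marker lower and 1 goblet and 1 pan-epithelial marker higher, and DESeq2 with all libraries called 3 of 5 tuft markers and 1 of 4 red cell markers lower and 1 goblet marker in each direction. On the longer lists edgeR called 1 proliferation marker higher (Rrm2), 4 enterocyte markers lower and 1 leukocyte marker lower (Gzma). DESeq2 called more on these lists: 9 of 20 proliferation markers higher, 6 of 15 enterocyte markers lower and 6 of 12 leukocyte markers tested lower. DESeq2 also called more of all 15729 genes, 1854 against 443 by edgeR and 316 by limma. In bulk RNA fewer cells of a type and less RNA per cell cannot be told apart. The part of these markers in the glycolysis results was not tested.

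LPA treatment of knockouts left no member past the threshold: 0 of 10 passed, against 0% of the 15729 genes in limma's test. At an unadjusted p under 0.05 there were 459 genes and 0 members, edgeR called 0 genes and DESeq2 6 genes, none of them a member. This comparison shares the 4 knockouts with the one above. With all libraries 8 of 10 members and 60.7% of all genes had log2 fold changes above 0 (medians 0.26 and 0.11). Without MYO5B-knockout mouse 3 and control mouse 2 these were 2 of 10 members and 41.7% of all genes (medians -0.18 and -0.11). The signs of Hk2, Aldoa, Gapdh, Pgk1, Eno1 and Ldha thus turned on 1 library of the vehicle group. Hk1, called in the first comparison, was at 6.77 ± 2.16 FPKM (SD, n = 4) with vehicle and 8.51 ± 4.14 FPKM (SD, n = 3) with LPA (log2 fold change 0.28, SE 0.57). For the same 2 groups Slc2a1 was at 14.9 to 30.6 FPKM and 29.8 to 32.6 FPKM, Slc2a5 at 12.7 to 55.7 FPKM and 13.8 to 20.8 FPKM, and Khk at 62.1 to 146 FPKM and 88.0 to 160.0 FPKM. All of these ranges overlapped, and limma's adjusted p was 1 for each of the 10 members.

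Within the LPA-treated group, mouse 5 lay apart from the other 2 for several members. It was far below them for Aldoa, Gapdh, Pgk1, Eno1 and Ldha and far above them for Hk2. For Hk1 and Gpi1 mouse 5 was also the lowest, but mouse 1 lay farther from the other 2. For Pfkl mouse 5 was the highest, but mouse 4 lay farther from the other 2. The Pgam1 of mouse 5, at 7.01 FPKM, lay between the 2 libraries that stood apart and the other 2 LPA-treated mice (88.6 and 38.6 FPKM). Mitochondrial genes took 3.50% of the reads of LPA-treated mouse 5, the highest share outside the 2 libraries that stood apart. In that mouse 17748 genes had reads, a number within the range of the other mice. Pgk1, which lies on the X chromosome, was at 469.8 FPKM in LPA-treated mouse 1 and 94.8 FPKM in MYO5B-knockout mouse 3, the highest value of the series and the lowest but 1, and these are the 2 libraries with Xist.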

How the data were processed

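RNA of jejunal epithelial cells from 10 mice was sequenced as poly-A libraries. The authors deposited FPKM for 35275 genes, scaled to the fragments counted on genes. The submitters' processing notes name STAR 2.5, TopHat, HTSeq 0.6.1 and DESeq2 with GRCm38 and mm10, without roles, and the strand setting is not given in the sources used here. Another deposited table gave read counts of 9 genes, and 63 of 63 equalled the reads recovered from FPKM and gene length (100% of values whole within 0.01). The fold changes and p-values in it, and the pathway enrichment tables, were not used. The members and lists were chosen with earlier results of these data known.

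Groups came from the sample titles. The description of LPA-treated mouse 1 names both vehicle and LPA. Genes averaging 0.1 FPKM or more were compared as log2(FPKM + 0.1) in limma 3.58.1 (R 4.3.3, trended variance, 1 model of 3 groups, two-sided, Benjamini-Hochberg over all genes tested, threshold 0.05). Fold changes of low genes are understated on this scale. Ratios were tested by exact permutation (scipy 1.17.1). Alternatives were other pseudocounts (1 and 0.01), filters and scalings, omission or a covariate for the 2 libraries that stood apart, single mice left out, and edgeR 4.0.16 and DESeq2 1.42.0 on recovered reads. The fits were tested on simulated data. Copies of members were sought with blastn 2.17.0 in GENCODE M21 transcripts (90% identity, 50% coverage).

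Genes named are the 10 members and every listed pathway gene that limma called with all libraries. Also named are the 3 of each list with the largest change at a mean of at least 1 FPKM. Tpi1, Pgam1, Ldhb and Pklr, and the 5 genes most like the members' profile, complete the rule. Others were named after their values or calls were seen, and not every gene called by edgeR or DESeq2 alone is named. Another gene of the lists, and an isoenzyme ratio with it, is not reported here. Tigar and Tkfc were not found under those symbols. Reads overlapping Hk1 (Hk1os), Hk2 (Gm17034) and Gpi1 (Gm26762) on the other strand came to 0.460%, 0.347% and 0.508% of those of each gene.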

Additional observations from a re-analysis of the deposited data

Results flagged for a closer look

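Of 12 values examined in the 4 MYO5B-knockout mice (the FPKM of the 10 members and 2 isoenzyme ratios), 1 had a mouse far from the others by Dixon's ratio at the 95% level. Gapdh in MYO5B-knockout mouse 3 lay at 189 FPKM against 1817 to 2019 FPKM in the other 3 mice, so that the gap to the nearest mouse was 0.89 of the whole range (critical value 0.829). Pgk1 came next, at 0.818. Chance alone flags about 1 group in 20, and groups of 3 mice were not examined. The library is 1 of the 2 that stood apart in detected genes and mitochondrial share, and the part of either in the low Gapdh value was not tested.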

How the results depend on the processing

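No paired analysis was possible because only mouse number 5 recurs between controls and knockouts, and between vehicle- and LPA-treated knockouts. Hk1 kept its direction in every fit (log2 fold change 1.91 to 3.12) but passed in 8 of 11 alternatives (adjusted p 1.85e-06 to 0.106) and 1 of 10 fits that left out a mouse, the one without knockout mouse 3. Members called between knockouts and controls thus came to 0 with a pseudocount of 0.01, without the filter and with only the 2 groups, 2 with a covariate for the 2 libraries (Hk1 and Pgk1), and 0 to 1 with single mice left out. All genes called, 316 in the report, came to 188 without the filter, 598 after median-of-ratios scaling, 804 after quantile normalization, 54 with only the 2 groups, 1032 without the 2 libraries, 2449 with the covariate, 1854 by DESeq2, and 44 (without control mouse 5) to 448 (without knockout mouse 3) with mice left out. Under LPA, DESeq2 called 6. The causes were not tested.

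Signs against controls turned for Pfkl (edgeR -0.11, DESeq2 -0.14) and, with mice left out, for Gapdh (-0.59 to 1.25), Eno1 (-0.64 to 0.38), Ldha (-0.21 to 0.68) and the log2 ratio of Pkm to Pklr (-1.22 to 0.83); the negative extremes of the genes came without control mouse 2 and the positive ones without knockout mouse 3. Under LPA, signs turned without the 2 libraries for Hk2 (-0.22), Aldoa (-0.18), Gapdh (-0.35), Pgk1 (-0.18), Eno1 (-0.12), Ldha (-0.27) and the ratio of Hk2 to Hk1 (-0.28), and with the covariate for Hk1 (-0.074), Aldoa (-0.076), Gapdh (-0.32), Pgk1 (-0.21), Eno1 (-0.087) and Ldha (-0.28). Pfkl turned after median-of-ratios scaling (-0.049), quantile normalization (-0.016), edgeR (-0.17) and DESeq2 (-0.20), and Ldha after quantile normalization (-0.11), edgeR (-0.0020) and DESeq2 (-0.0013). With mice left out the ranges were -0.088 to 0.59 for Hk1, -0.22 to 0.79 for Hk2, -0.15 to 0.060 for Gpi1, -0.16 to 0.21 for Pfkl, -0.18 to 0.55 for Aldoa, -0.35 to 1.03 for Gapdh, -0.18 to 0.64 for Pgk1, -0.12 to 0.63 for Eno1, -0.27 to 0.40 for Ldha, and -0.69 to 0.67 and -1.002 to 0.99 for the log2 ratios of Hk2 to Hk1 and Pkm to Pklr. Low counts limit Hk1, which rests on 14 reads in control mouse 2.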

Other observations

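A processed pseudogene with 99.9% identity to Gapdh over 1000 bases, Gm13394, divided the mice in a way that no group follows. It was listed at 69.0 FPKM in control mouse 5, 102 FPKM in MYO5B-knockout mouse 5, 112 FPKM in mouse 7 and 139.8 FPKM in LPA-treated mouse 1, and at 0 to 2.45 FPKM in the other 6 mice. The 146 copies of Gapdh with values took 3.68% to 4.53% of the reads of Gapdh and these copies in those 4 mice and 0.262% to 2.37% in the others. Gapdh itself was at 1429 to 2188 FPKM in the 4 mice. This gene was named after its values were seen.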
